A study of Mus musculus with 2 samples.

Results

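The genes described here encode splicing factors and heterogeneous nuclear ribonucleoproteins (hnRNPs). They were taken by a rule on names, as every probe set annotated to exactly 1 gene whose current symbol is that of an Srsf, Hnrnp, Sf3a, Sf3b, Snrp, Prpf, U2af, Rbfox, Ptbp, Mbnl, Esrp or Celf gene. The rule itself uses no measured value, but the families were chosen with earlier results of these data known. There were 224 such probe sets for 78 genes, among 45037 probe sets for 18193 named genes in all. The study put bEnd3 cells, an endothelial line from BALB/c mouse brain microvessels transformed with polyoma middle T antigen, under puromycin selection after retroviral delivery of an siRNA. One group was labelled Smad4-siRNA and the other Control-siRNA. RNA from 2 infections was pooled for each group and hybridised to 1 Affymetrix array, so the comparison sets 1 array against 1 array, without replicates and without a test, and every value is only as precise as that allows: the number of arrays limits it. Smad4 is the Smad shared by the TGF-β and BMP pathways, and the comparison asks which transcripts differ when its siRNA is present.

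Introns are removed by the spliceosome, which assembles on each intron from small nuclear ribonucleoproteins (snRNPs) built of an snRNA, a ring of Sm proteins and particle-specific proteins. U1 marks the 5′ splice site, U2AF and then U2 with its SF3A and SF3B complexes mark the branch region and the 3′ end of the intron, and the U4/U6.U5 tri-snRNP completes the assembly. SR proteins bind exonic enhancers and favour exon inclusion, while many hnRNPs bind silencers and oppose it, and the Rbfox, Ptbp, Mbnl, Esrp and Celf proteins tune particular exons in neurons, muscle, epithelium and other tissues.

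Signals below are MAS5 probe set intensities after quantile normalization, on a linear scale, and log2 ratios were taken as Smad4-siRNA label minus Control-siRNA label. A signal counts as measured at or above 22.8, the median of each normalized array, and a gene is represented by its brightest probe set. Smad4 itself was not lower on the array that carries its siRNA label. Its 3 probe sets gave log2 ratios of 0.25, 0.58 and 0.35, and of -0.12, 0.21 and -0.07 before normalization, so the samples are called here by their labels, and "higher" and "lower" describe the cells or array labelled Smad4-siRNA and not a response to Smad4 loss. The arrays also differed in cell type markers, and most defining markers of the labelled endothelial line were below the floor under the Smad4-siRNA label. The floor was reached by 4 of 10 endothelial markers in cells labelled Smad4-siRNA against 10 in Control-siRNA cells, with summed signals of 210 and 17218. It was reached by 8 of 10 fibroblast markers in cells labelled Smad4-siRNA against 2 in Control-siRNA cells, with summed signals of 21220 and 984. Xist, which coats the silenced X of female cells, had 4476 in cells labelled Smad4-siRNA against 20.7 in Control-siRNA cells, whereas the Y-linked Kdm5d had 4.69 against 122. In bulk RNA, fewer cells of a type and less RNA per cell cannot be told apart, and the siRNA cannot be told apart from any other difference between the cultures. The part of cell identity in the results below was not tested.

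A smaller share of the splicing genes than of all genes was 2-fold or more apart between the arrays. Of the 78 genes, 68 were measured on both arrays, 3 only under the Smad4-siRNA label, 1 only under the Control-siRNA label and 6 on neither array. A difference of 2-fold or more was seen for 5 higher and 4 lower genes of the 68, or 13.2%, and 59 lay within 2-fold. Over all 9479 genes measured on both arrays, 27.7% were at least 2-fold apart, with 12.6% higher and 15.0% lower. In the deposited values the gap was narrower, at 23.5% of the splicing genes and 31.4% of all genes. Over single probe sets the shares were 8.67% of 173 for the splicing genes and 26.3% of 17205 for all genes. Among brighter genes alone, with the floor at the 75th percentile, they were 6.56% of 61 splicing genes and 19.2% of 5520 genes. The standard deviation of the log2 ratios was 0.80 over the 68 splicing genes and 1.10 over all genes.

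Most of the splicing genes lay slightly to the lower side. Their median log2 ratio was -0.36, against -0.15 for all genes, and 48 of 68 were below 0, against 57.1% of all genes. The balance of the few 2-fold differences depended on the scaling, with 5 higher and 4 lower after quantile normalization, 3 and 13 for the values as deposited, 4 and 5 for deposited ratios centred on their median, and 6 and 2 after removal of a lowess trend. The deposited values moved the median of all genes to -0.33. The splicing genes' median lay below that of all genes by 0.22 after quantile normalization and by 0.34 in the deposited values. Among these 4 scalings, 46 of the 68 genes kept a ratio below 0, 14 kept one above 0 and 8 changed sign.

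**Figure D1:**
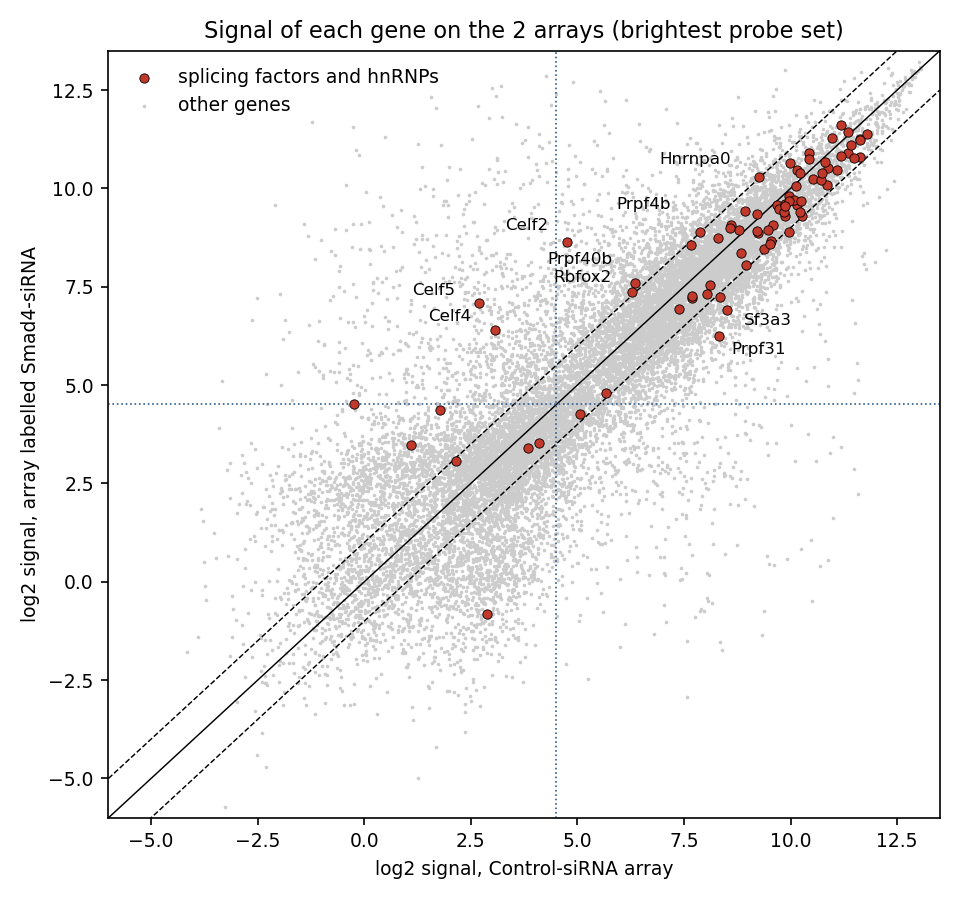
Log2 signal of each named gene on the Control-siRNA array (horizontal axis) and on the array labelled Smad4-siRNA (vertical axis), with the 78 splicing genes as red points and all other genes in grey. The solid line marks equal signal, dashed lines 2-fold and dotted lines the floor. Most splicing genes above the floor on both arrays lie between the dashed lines, with Celf2 far above them and Prpf31 and Sf3a3 below. Celf4, Celf5, Srsf12, Rbfox3, Snrpn and Esrp1 also lie far from the line of equal signal, with 1 or both signals under the floor.

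Transcripts for the body of the spliceosome were lower in most cases, mostly by less than 2-fold. Of the 31 SF3, U2AF, Snrp and Prpf genes measured on both arrays, 26 had a log2 ratio below 0 (83.9%, beside 57.1% of all genes). Their median was -0.44, or 0.29 under the median of all genes. The count below 0 was 26 under each of the other scalings except the deposited values, where it was 28. By at least 2-fold, 2 of the 31 genes were higher and 4 lower, or 19.4%, beside 27.7% of all genes. For scale, log2 ratios scattered between the probe sets of the same gene by a pooled SD of 0.47 (4546 genes), a spread for single genes that leaves out the one between arrays and cultures.

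SF3A, the trimer through which U2 binds the branch region, had the lowest median log2 ratio of the core complexes, at -1.05 over its 3 genes. Sf3a3 had a signal of 120 in cells labelled Smad4-siRNA against 365 in Control-siRNA cells, a 3.04-fold difference, and its second probe set had 127 and 345. Sf3a2 had 479 in cells labelled Smad4-siRNA against 994 in Control-siRNA cells, a 2.08-fold difference, and its second probe set had a log2 ratio of -1.21. Sf3a1, the scaffold of the trimer, had 153 and 207 in the same order, a log2 ratio of -0.43. All probe sets of these 3 genes that were measured on both arrays were thus lower. Sf3a3 passed 2-fold under all of the 8 settings in which it was measured, and Sf3a2 fell short of it after lowess removal, at -0.93.

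SF3B, which holds the branch adenosine, was lower in 5 of its 6 genes by their brightest probe sets. Sf3b4 came closest to 2-fold, with a signal of 631 in cells labelled Smad4-siRNA against 1242 in Control-siRNA cells. Sf3b2, Sf3b3, Sf3b5 and Sf3b6 had log2 ratios of -0.38, -0.29, -0.57 and -0.57. The other set of Sf3b3 was above 0, at 0.24, and the median over its sets was -0.02. Sf3b1, the largest subunit, which contacts the branch site directly, was the exception, with 1415 in cells labelled Smad4-siRNA against 1128 in Control-siRNA cells and all 4 of its probe sets above 0, although its ratio was -0.07 in the deposited values. U2af2, the subunit that reads the polypyrimidine tract, had 267 in cells labelled Smad4-siRNA against 494 in Control-siRNA cells (log2 ratio -0.89), and U2af1, which reads the AG at the intron end, had 749 and 934 (-0.32).

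The Sm ring and the snRNP-specific Snrp genes were lower without exception among the 8 measured, and none reached 2-fold in its brightest probe set. Snrpf, Snrpb and Snrpd3, which contribute to the Sm ring, had log2 ratios of -0.95, -0.84 and -0.76, and Snrpe and Snrpg had -0.39 and -0.31. The U2 proteins Snrpb2 and Snrpa1 had -0.90 and -0.51, and Snrpc, the U1 protein that steadies pairing at the 5′ splice site, had -0.44. Their median was -0.64, and all 8 stayed below 0 and below the median of all genes under each of the 4 scalings. In the deposited values 4 of the 8 passed 2-fold, where 31.4% of all genes did. After quantile normalization the other set of Snrpb2 measured on both arrays had a log2 ratio of only -0.12. A dimmer set of Snrpd3, below the floor in cells labelled Smad4-siRNA alone, gave a bound of at least 2.27-fold lower. The single-gene probe set of Snrpn, an imprinted relative of Snrpb expressed mostly in brain, was below the floor on both arrays.

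The Prpf genes, which act with the tri-snRNP, the Prp19 complex and U1, lay on both sides of 0. Of 12, 2 were higher and 2 lower by at least 2-fold, a share of 33.3% beside 27.7% of all genes. Prpf31, a tri-snRNP gene that is mutated in a form of retinitis pigmentosa in humans, had a signal of 76.5 in cells labelled Smad4-siRNA against 318 in Control-siRNA cells, a 4.15-fold difference, but its second probe set had 58.7 and 57.4. Prpf38a, a factor of the step that activates the spliceosome, had 152 in cells labelled Smad4-siRNA against 325 in Control-siRNA cells, a 2.15-fold difference that fell short of 2-fold after lowess removal (-0.95). Among the other tri-snRNP genes, Prpf3, Prpf4, Prpf6 and Prpf8, the last being the protein at the catalytic centre, had log2 ratios of -0.44, -0.47, -0.37 and -0.27. Prpf19, a ubiquitin ligase of the activated spliceosome, had -0.36, and Prpf18, which acts in the second catalytic step, had -0.58.

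The other 4 Prpf genes had log2 ratios above 0. Prpf40b, a relative of the yeast U1 protein Prp40, had 194 in cells labelled Smad4-siRNA against 81.3 in Control-siRNA cells, a 2.39-fold difference, from 1 probe set. Prpf4b, a kinase of splicing proteins, had 478 in cells labelled Smad4-siRNA against 234 in Control-siRNA cells in its brightest probe set, a 2.04-fold difference. That difference did not hold over its 6 probe sets, whose median log2 ratio was 0.34. Prpf39 and Prpf38b had log2 ratios of 0.39 and 0.17, and the second was -0.19 in the deposited values.

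**Figure D2:**
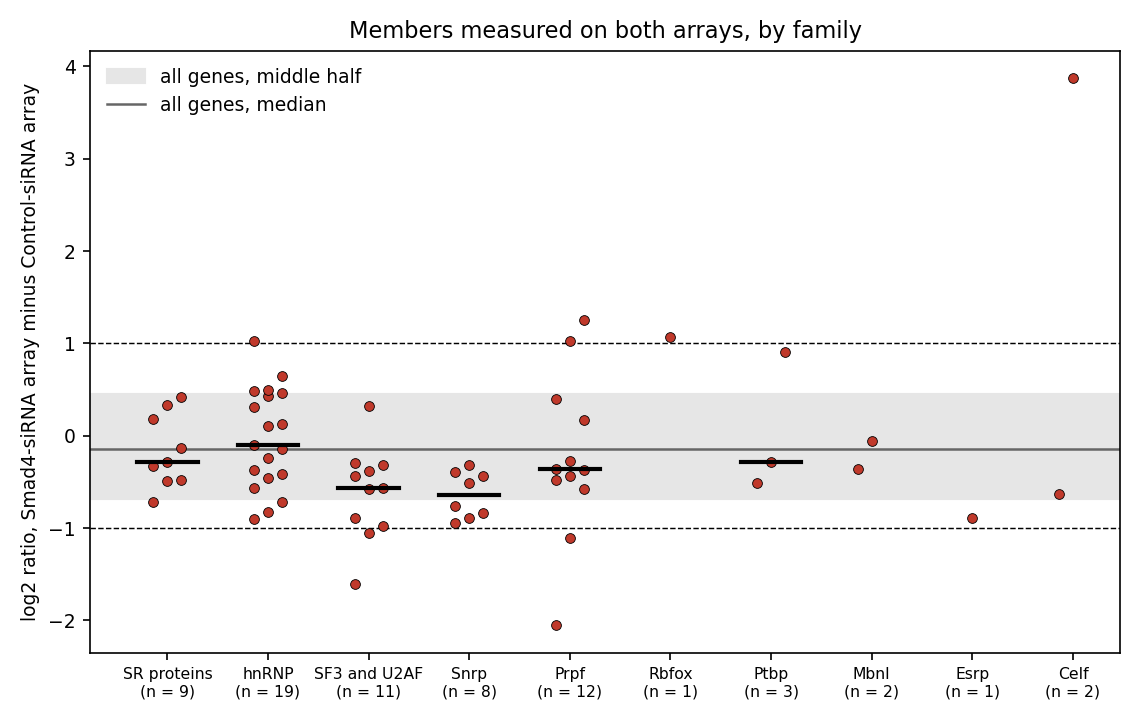
Log2 ratio (array labelled Smad4-siRNA minus Control-siRNA array) of each of the 68 genes measured on both arrays, by family, with a black bar at the median of families of at least 3 genes. The grey line and band are the median (-0.15) and the middle 50% (-0.69 to 0.45) of all genes, and dashed lines mark 2-fold. All Snrp genes and all SF3 and U2AF genes but Sf3b1 lie below the grey line, while hnRNP genes lie on both sides.

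SR proteins stayed within 2-fold in their brightest probe sets. Of 9 measured on both arrays, 6 had log2 ratios below 0 and 3 above, with a range of -0.71 to 0.42 and a median of -0.28. Srsf4 was lowest, with a signal of 160 in cells labelled Smad4-siRNA against 262 in Control-siRNA cells, and Srsf5 was highest, with 3118 and 2338. The founding member Srsf1, a general activator of splicing, had 1639 in cells labelled Smad4-siRNA against 1795 in Control-siRNA cells, and Srsf3, which also serves mRNA export, had 824 and 1000.4. Srsf6, Srsf9 and the splicing repressor Srsf10 had log2 ratios of -0.49, -0.33 and -0.48, and Srsf11 and Srsf2 had 0.33 and 0.18, both turning below 0 in the deposited values (-0.02 and -0.21). A dimmer set of Srsf10, measured on both arrays, had a log2 ratio of -1.5, or 2.83-fold lower. The remaining sets of Srsf10 had -0.34 and -0.21. With the median over the probe sets of a gene, Srsf6 turned to 0.09 and Srsf2 to -0.29. The brightest set of Srsf2 carries a suffix for sequence shared with other transcripts. Its only set without one had a log2 ratio of -1.27, from signals of 24.6 in cells labelled Smad4-siRNA against 59.3 in Control-siRNA cells, the first of which is close to the floor. Srsf12 reached the floor in cells labelled Smad4-siRNA alone, with 22.9, which gives a bound of at least 1.01-fold.

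The hnRNP genes, all 19 of them measured on both arrays, had ratios on both sides of 0. There were 10 below 0 and 9 above, and the median of -0.10 was 0.02 after lowess removal, 0.03 with the median over probe sets and -0.49 in the deposited values. After quantile normalization Hnrnpa0 alone passed 2-fold in its brightest probe set, or 5.26% of the hnRNP genes beside 27.7% of all genes. It had a signal of 1254 in cells labelled Smad4-siRNA against 616 in Control-siRNA cells (2.03-fold), and its log2 ratio was 0.64 in the deposited values. In those values 0 of the 19 hnRNP genes were higher and 3 lower by 2-fold, where 31.4% of all genes were at least 2-fold apart. The 3 were Hnrnpm (-1.26), Hnrnpab (-1.13) and Hnrnpu (-1.01). A relative of Hnrnpa0, Hnrnpa1, a widespread repressor of exon inclusion, had 1594 in cells labelled Smad4-siRNA against 1018 in Control-siRNA cells, a log2 ratio of 0.65 in the brightest of 3 probe sets that ranged from -0.18 to 0.65. Hnrnpm was the lowest, with 353 in cells labelled Smad4-siRNA against 661 in Control-siRNA cells (-0.90). Hnrnpu, a scaffold protein of the nucleus, had -0.71 in its brightest probe set, but 3 of its 5 sets were above 0 and their median was 0.04. Its relatives Hnrnpul1 and Hnrnpul2 had 0.50 and 0.48. Of the proteins that bind runs of G, Hnrnpf had -0.41, Hnrnph2 -0.10, and Hnrnph1 and Hnrnph3 0.47 and 0.44. Hnrnpd, Hnrnpr and Hnrnpll had -0.15, -0.24 and -0.57, of which the first was 0.03 with the median over probe sets. Hnrnpc, which binds runs of U, had -0.37, and Hnrnpk, which binds runs of C, had 0.31 in its brightest set, while its other 3 sets were below 0 and the median over sets was -0.27. Hnrnpl, which binds CA repeats, and Hnrnpdl had 0.13 and 0.10, and both turned below 0 in the deposited values (-0.25 and -0.15).

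The largest difference among the 68 genes was in the Celf family, one of the tissue-related regulator families. Celf proteins bind GU-rich elements and act on splicing, translation and decay, and Celf1 is the member found in most tissues. Celf2 had a signal of 398 in cells labelled Smad4-siRNA against 27.2 in Control-siRNA cells, a 14.6-fold difference. A further pair of its 7 probe sets had 349 and 254 on the array labelled Smad4-siRNA but did not reach the floor in Control-siRNA cells, which bounds the difference at 15.3-fold and 11.2-fold or more, and the other 4 were below the floor on both. Celf1 went the other way, with 1418 in cells labelled Smad4-siRNA against 2189.7 in Control-siRNA cells, a log2 ratio of -0.63 with 4 of 5 probe sets below 0.

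Celf4 and Celf5, known best from brain, were measured on the array labelled Smad4-siRNA alone. Celf5 had 135 in cells labelled Smad4-siRNA against 6.42, below the floor, in Control-siRNA cells, and was at least 5.94-fold higher. Celf4 had 84.9 in cells labelled Smad4-siRNA against 8.40 in Control-siRNA cells in its brightest probe set, at least 3.73-fold higher, and its other probe sets gave bounds of 5.35-fold and 2.79-fold. That made 2 of the 3 splicing genes measured on that array alone, where 59.8% of all such genes had a bound of at least 2-fold. Celf3 was measured on the Control-siRNA array alone, with 19.1 in cells labelled Smad4-siRNA against 33.3 in Control-siRNA cells, a bound of 1.46-fold, and Celf6 on neither. Of 8 neuron markers, 0 reached the floor in cells labelled Smad4-siRNA against 1, Nefl, in Control-siRNA cells, with summed signals of 85.2 and 530. Fibroblast markers were higher on the same array as Celf2, Celf4 and Celf5, by the values given above. Of 8 smooth and striated muscle markers, 2 reached the floor in cells labelled Smad4-siRNA against 3 in Control-siRNA cells, with summed signals of 1922 and 114. No marker of these lists was at 0, but neither was any deposited signal, the lowest being 0.011. The part of these markers in the Celf values was not tested.

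**Figure D3:**
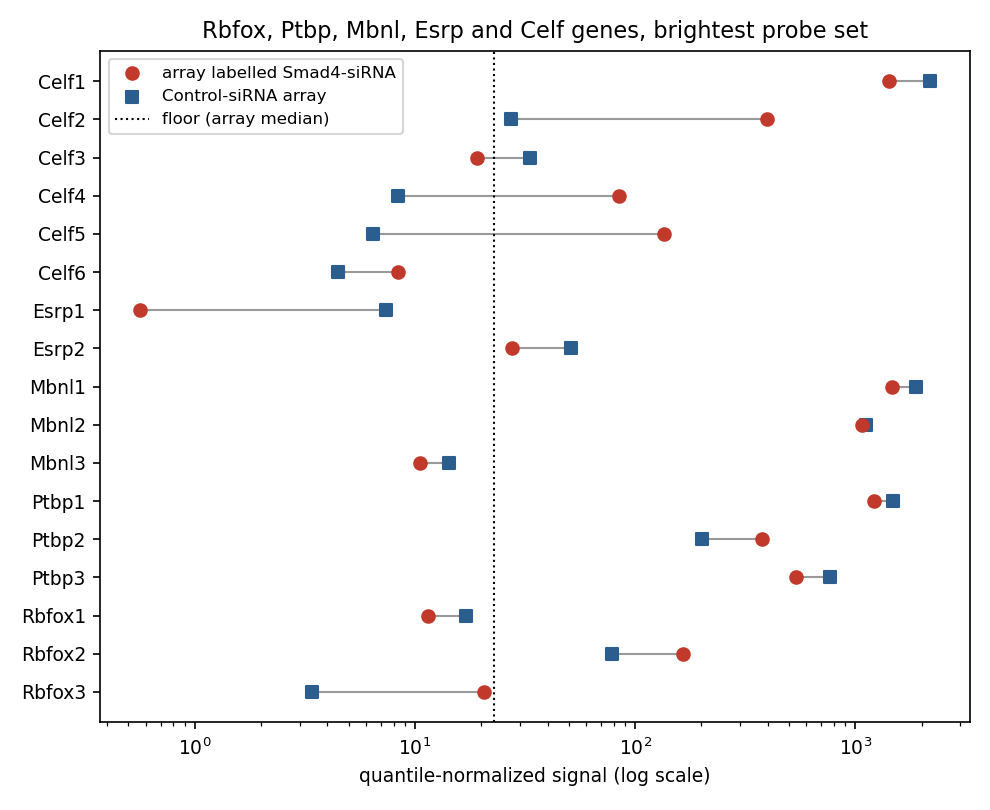
Signal of each Rbfox, Ptbp, Mbnl, Esrp and Celf gene in its brightest probe set, on a log axis, with red circles for the array labelled Smad4-siRNA and blue squares for the Control-siRNA array; the dotted line is the floor of 22.8. Celf2, Celf4 and Celf5 have the longest gaps among genes with a signal above the floor, while Mbnl1, Mbnl2 and Ptbp1 have nearly the same signal on both arrays.

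The other measured regulators differed less in their brightest probe sets. Ptbp1, the polypyrimidine tract-binding protein of non-neuronal cells, had a signal of 1214 in cells labelled Smad4-siRNA against 1484 in Control-siRNA cells (log2 ratio -0.29). Its paralog Ptbp2, which replaces it in neurons, had 377 in cells labelled Smad4-siRNA against 202 in Control-siRNA cells (0.90), and Ptbp3 had 538 and 767 (-0.51). A dimmer set each of Ptbp1 and Ptbp3 was below the floor in cells labelled Smad4-siRNA alone. These sets gave bounds of at least 2.46-fold and 5.17-fold lower. Ptbp2 thus lay on the opposite side of 0 from Ptbp1 and Ptbp3, and it kept a ratio above 0 under each setting, from 0.60 to 1.03. The muscleblind genes Mbnl1 and Mbnl2, whose proteins are trapped by repeat RNA in myotonic dystrophy, had log2 ratios of -0.36 and -0.06, and the second was 0.03 after lowess removal. Rbfox2, the Rbfox gene of most non-neuronal tissues, had 165 in cells labelled Smad4-siRNA against 78.3 in Control-siRNA cells, a 2.10-fold difference that its other probe sets did not share. Rbfox1, Rbfox3 (the neuronal antigen NeuN), Mbnl3 and Esrp1 were below the floor on both arrays in every probe set. Esrp2, a regulator of epithelial exons, had 27.7 in cells labelled Smad4-siRNA against 51.1 in Control-siRNA cells, both close to the floor, and its second probe set was below the floor on both. Of 8 epithelial markers, 2 reached the floor in cells labelled Smad4-siRNA against 1 in Control-siRNA cells, with summed signals of 171 and 114.

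Among the genes nearest the 2-fold limit, Hnrnpa0 (1.02) and Prpf4b (1.03) lay just beyond it on the higher side, and Ptbp2 (0.90) and Hnrnpa1 (0.65) were the next below it. On the lower side Sf3a2 (-1.05) and Prpf38a (-1.10) lay just beyond it, and Sf3b4 (-0.98) and Snrpf (-0.95) just short of it.

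Several splicing genes had probe sets that went opposite ways, which a single value per gene hides. Of the 45 splicing genes with at least 2 probe sets measured on both arrays, 4 had sets on both sides of 0 by at least 0.5 on the log2 scale (8.89%), against 4.09% of 4546 genes overall. With the sign alone, the shares were 46.7% and 29.2%. The genes were not matched for their number of probe sets or for how near 0 their ratios lay. Both affect how often signs differ, so these shares cannot show a trait of splicing genes. The pooled SD between probe sets was 0.46 for the splicing genes and 0.47 for all genes. Probe sets of a gene can report different transcript ends or isoforms, can share sequence with related genes, or can differ in noise, and which of these applies was not tested.

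Prpf4b spread widest among the 4. Its probe sets had signals of 478 and 383 in cells labelled Smad4-siRNA against 234 and 123 in Control-siRNA cells, and another had 172 against 340, so that log2 ratios of 1.03, 1.63 and -0.98 came from the same gene. Rbfox2 had 165 in cells labelled Smad4-siRNA against 78.3 in Control-siRNA cells in 1 set, and the other 3 had log2 ratios of -0.65, -0.60 and -0.32. The median over the 4 sets was -0.46, on the other side of 0 from the brightest set. Hnrnpa2b1, which encodes the hnRNP A2 and B1 isoforms, had a log2 ratio of 0.90 in 1 set, with 984 in cells labelled Smad4-siRNA against 528 in Control-siRNA cells, and of -0.15, -0.46 and -1.06 in the other 3. Hnrnpab had 0.77 in 1 set and ratios between -0.87 and -0.50 in the other 4 measured on both arrays. In each of Rbfox2, Hnrnpa2b1 and Hnrnpab a lone set was higher and the rest were lower.

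**Figure D4:**
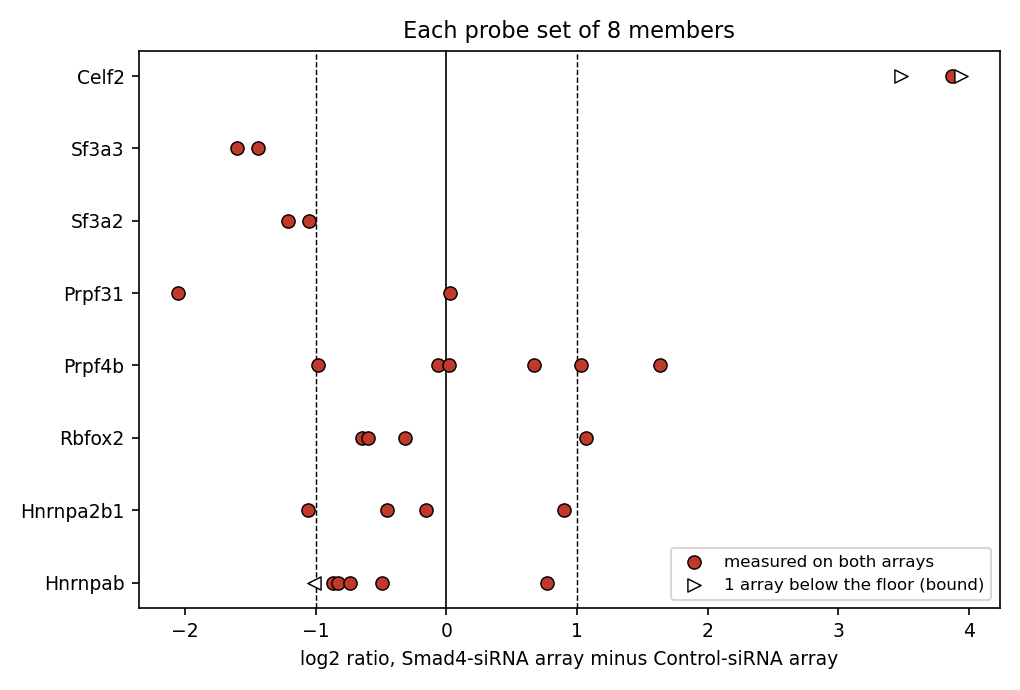
Log2 ratio of each probe set of 8 splicing genes, filled where both arrays reached the floor and open triangles where 1 array was below it, in which case the point is the bound; sets below the floor on both arrays are left out. Celf2, Sf3a3 and Sf3a2 have all sets on 1 side of 0, whereas Prpf4b, Rbfox2, Hnrnpa2b1 and Hnrnpab have sets on both sides and Prpf31 has 1 set near 0.

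The stretch upstream of the start site is shown for the splicing genes at least 2-fold apart that have a single start in the RefSeq promoter table (GRCm38.p6), 4 lower and 2 higher, to set beside their differences the letters that ETS factors and Smads are known to bind. Each line gives the 250 bases before the start, 5′ to 3′ on the gene's strand. Capitals mark CCGGAA or its reverse complement TTCCGG, the core bound by ETS factors, and CAGAC or its reverse complement GTCTG, a Smad box.
Prpf31, chr7:3629735-3629984, plus strand: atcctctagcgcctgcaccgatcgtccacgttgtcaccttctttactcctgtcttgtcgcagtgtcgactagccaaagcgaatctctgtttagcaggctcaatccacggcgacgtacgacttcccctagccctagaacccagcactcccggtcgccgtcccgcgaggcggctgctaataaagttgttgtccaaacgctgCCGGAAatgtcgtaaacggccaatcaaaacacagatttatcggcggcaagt
Sf3a3, chr4:124714611-124714860, plus strand: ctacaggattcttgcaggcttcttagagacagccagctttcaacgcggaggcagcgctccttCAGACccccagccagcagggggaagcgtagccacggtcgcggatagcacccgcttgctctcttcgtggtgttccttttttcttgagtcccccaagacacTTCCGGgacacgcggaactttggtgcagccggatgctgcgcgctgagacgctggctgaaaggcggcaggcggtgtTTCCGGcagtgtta
Prpf38a, chr4:108579337-108579586, minus strand: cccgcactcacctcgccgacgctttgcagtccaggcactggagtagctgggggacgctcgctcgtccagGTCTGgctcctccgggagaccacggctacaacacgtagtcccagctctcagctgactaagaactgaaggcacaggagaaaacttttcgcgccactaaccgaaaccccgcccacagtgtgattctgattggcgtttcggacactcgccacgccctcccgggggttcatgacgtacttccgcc
Sf3a2, chr10:80798485-80798734, plus strand: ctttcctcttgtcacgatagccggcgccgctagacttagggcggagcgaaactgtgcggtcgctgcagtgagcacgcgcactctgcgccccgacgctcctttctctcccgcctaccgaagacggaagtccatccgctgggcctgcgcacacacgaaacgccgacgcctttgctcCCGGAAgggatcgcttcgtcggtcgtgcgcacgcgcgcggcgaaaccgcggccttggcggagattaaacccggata
Hnrnpa0, chr13:58128557-58128806, minus strand: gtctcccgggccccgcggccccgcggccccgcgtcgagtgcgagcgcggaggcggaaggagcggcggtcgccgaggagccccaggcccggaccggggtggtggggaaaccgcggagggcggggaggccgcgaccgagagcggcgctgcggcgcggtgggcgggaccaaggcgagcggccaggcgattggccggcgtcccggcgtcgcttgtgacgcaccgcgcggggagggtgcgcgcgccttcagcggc
Prpf4b, chr13:34875279-34875528, plus strand: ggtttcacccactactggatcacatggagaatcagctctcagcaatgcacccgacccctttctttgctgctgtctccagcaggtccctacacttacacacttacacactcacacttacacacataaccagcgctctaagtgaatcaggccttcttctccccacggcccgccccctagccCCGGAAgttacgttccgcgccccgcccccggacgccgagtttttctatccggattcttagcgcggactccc

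The ETS core stood upstream of Prpf31, Sf3a2 and Prpf4b once each and of Sf3a3 at 2 positions, and was not found in these windows of Prpf38a and Hnrnpa0. The Smad box stood once each upstream of Sf3a3 and Prpf38a. Over the 103 upstream windows that the table holds for 66 of the 78 genes, 34.0% had the ETS core on either strand, against 23.7% of 9963 windows of genes measured on both arrays and 3952 of all 32851. For the 35 windows of SF3, U2AF, Snrp and Prpf genes the share was 54.3%. The Smad box, which can share at most 1 letter with the ETS core, was in 26.2% of the splicing genes' windows, 39.9% of those of genes measured on both arrays and 42.2% of all. TATAAA, on either strand, was in 8.74%, 5.94% and 12.4% of the same sets. These are counts of letters in windows, with several windows per gene in some cases, and they say nothing about binding in these cells.

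Genes of the splicing machinery outside these families were looked at in 4 lists. Of 135 genes listed, 124 had a probe set and 112 were measured on both arrays, of which 5 were higher and 12 lower by at least 2-fold (15.2%, beside 27.7% of all genes), with a median log2 ratio of -0.21. The Prp19 complex, catalytic-step and exon junction genes were the lowest of the 4 lists, with 20 of 25 below 0 and a median of -0.45. By 2-fold or more, 4 were lower and 0 higher, and the 4 are close to the 15.0% of all genes that were lower. Among these 4 were Bud31, with a signal of 793 in cells labelled Smad4-siRNA against 1828 in Control-siRNA cells, and Pnn, which encodes a protein of the exon junction complex, with 419 and 963. Crnkl1 and Ctnnbl1 were 2.01-fold and 2.08-fold lower. Other snRNP proteins and helicases had a median of -0.14, with 2 higher and 2 lower of 35 (11.4%, beside 27.7% of all genes). The helicase gene Ddx39a had 259 in cells labelled Smad4-siRNA against 1826 in Control-siRNA cells, 7.04-fold lower, and Lsm10, an Sm-like protein of the U7 particle, was 2.80-fold lower. The U1-associated Luc7l2 and Luc7l were 2.51-fold and 2.20-fold higher.

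SR-related proteins and SR protein kinases had few large differences, with 1 of 21 at least 2-fold lower, Scaf1 (2.68-fold), 0 higher and a median of -0.15. The share was 4.76%, beside 27.7% of all genes. The remaining RNA-binding regulators split into 3 higher and 5 lower of 32 (25%, beside 27.7% of all genes), with a median of -0.11. Rbms3 had 520 in cells labelled Smad4-siRNA against 51.4 in Control-siRNA cells, a 10.1-fold difference, and Taf15, which encodes an RNA-binding protein, had 213 and 30.7 (6.92-fold). Pcbp4 was 2.62-fold higher. Nova2, a regulator of neuronal and endothelial exons, had 31.4 in cells labelled Smad4-siRNA against 171 in Control-siRNA cells, 5.44-fold lower. The lower signals of Taf15 and Nova2 were close to the floor, which limits the precision of their ratios. The RNA-binding gene Syncrip was 2.80-fold lower, Rbm38, a p53 target, 2.54-fold, Rbm15 2.11-fold and the cold shock protein gene Ybx1 2.06-fold. Between the same arrays, proliferation markers went the other way from most of these genes, with 7 of 9 at least 2-fold higher and summed signals of 5658 in cells labelled Smad4-siRNA against 3571 in Control-siRNA cells, and their part in the splicing genes' values was not tested.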

How the data were processed

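Total RNA of bEnd3 cells was measured on 2 Affymetrix mouse arrays, grouped by the sample titles, each from 2 pooled infections per the labels. Per the submitters' processing notes, MAS5 gave the deposited values, a linear signal intensity for each probe set; no source used here states its version or scaling target. Probe sets were named from the platform annotation, updated by Entrez identifier to RefSeq (GRCm38.p6): of 45037 probe sets left after 64 controls, 34945 had 1 gene, 932 several and 9160 none. The 2% trimmed means were 114 and 138 (a difference of -17.2%), so log2 signals were quantile normalized (Python 3.11.15, numpy 2.4.6). Each array's median was the floor. With 1 side below it, the bright signal over the floor is a bound ("at least N-fold"). With 1 array per group no test was made.

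The families and lists were chosen with earlier results of these data known. Values are named for all genes at least 2-fold apart, all SR, Rbfox, Ptbp, Mbnl, Esrp and Celf genes, genes with probe sets of opposite sign, genes next to the 2-fold limit and those nearest 0. Further members of complexes described whole, and Xist, Kdm5d and Nefl, were added after their values were seen.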

Additional observations from a re-analysis of the deposited data

How the results depend on the processing

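The median log2 ratio of the splicing genes (-0.365) was below 0 under all 8 alternatives and ran from -0.672 as deposited to -0.274 after lowess removal. The deposited values also moved the median of all genes, to -0.327. The counts of 2-fold differences (5 higher and 4 lower) were 3 and 13 as deposited, 2 lower after lowess removal (with 6 higher), 2 and 2 with the floor at the 75th percentile, which tests fewer genes, and 3 higher with the median over the probe sets of a gene (with 4 lower). With that median Rbfox2 turned from 1.07 to -0.459, since 3 of its 4 probe sets were lower. Srsf6 likewise turned to 0.0907, Srsf2 to -0.286, Hnrnpk to -0.27, Hnrnpu to 0.04 and Hnrnpd to 0.03. Prpf31 moved to -1.01 and Prpf4b to 0.345. In the other alternatives the counts stayed within 1.5 times. At every setting a smaller share of splicing genes than of all genes was at least 2-fold apart. No replicate could be left out and no paired analysis was possible because each group has 1 array. Signals near the floor, such as those of Esrp2 and of Celf2 on the Control-siRNA array, limit the precision of their ratios.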

Other observations

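A further 16 probe sets are annotated to several genes, 1 of which has a name of these families, and entered no comparison. Of the 14 measured on both arrays, 10 had a log2 ratio below 0, 0 were at least 2-fold apart in either direction and the median was -0.17. The set named for the Sm ring gene Snrpd1 had a signal of 365 in cells labelled Smad4-siRNA against 671 in Control-siRNA cells (-0.88), and that named for Snrpd2 had 1164 and 1660.1 (-0.51), while the set named for the U1 gene Snrpa had 419 and 471 (-0.17). The sets named for Hnrnpa1 among other genes had log2 ratios of -0.57, 0.10 and -0.12. The 4 sets named for Hnrnpa3 had log2 ratios of -0.11, 0.12, -0.44 and 0.59. Of 6 sets named for both Snurf and Snrpn, which share a transcript, 4 were measured on both arrays, with signals between 134 and 323 on the array labelled Smad4-siRNA and between 135 and 365 on the Control-siRNA array.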
